A study of Rattus norvegicus with 18 samples.

Results

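Of 34873 rows in the count table from rat brain, 2328 are transcribed loci outside the annotation, which the table lists by a number in place of a gene name. They are called here by that number (locus 246, for example). The loci described here were selected on their level: 1117 of the 2328 (48.0%) had a mean raw count of 10 or more over all 18 libraries, and the remaining rows of the table are 32545 annotated genes. RNA-seq of brain tissue was done in 3 groups of 6 libraries. NC rats were wild type and untreated. CO rats were wild type and breathed carbon monoxide, 1000 ppm for 40 min and then 3000 ppm for 20 min, to a carboxyhaemoglobin above 60%. CLCF1 rats are labelled as a knock-down of CLCF1, a cytokine that signals through the gp130 receptor, and breathed the same gas. The design text also describes depletion of macrophages with liposomes and transfer of lentivirus-treated bone marrow macrophages, without saying which of the 3 groups received them. Brain region, time after exposure, strain and the number of animals behind a library are not given, so the p-values below measure the spread between libraries, which may be technical. Just inside the threshold were locus 314 and locus 1496, each with a mean of 10.0 counts. Just outside it were locus 631 with 9.94 and locus 869 with 9.89.

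An unannotated locus is a stretch where reads could be assembled although the annotation lists no gene. Such loci can be long non-coding RNAs, which are spliced and polyadenylated like messenger RNAs but code for no protein. They can also be missing ends or exons of known genes, genes that the genome build placed elsewhere, primary transcripts of microRNAs, or copies of retrotransposons such as LINE-1 elements and endogenous retroviruses. Whether the libraries keep the strand of the RNA is not stated. For a locus that abuts a gene on the other strand, reads from the locus and from an extended end of the gene therefore cannot be told apart.

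In each group, libraries 3 to 6 had counts only in rows where library 1 or 2 had one. In NC, 13670 rows of the table had no count in either library 1 or 2. Of these, 0 had a count in NC libraries 3 to 6, and 1370 had one in libraries 3 to 6 of the other groups. The same held for 14473 rows in CO (0 against 2133) and for 14517 rows in CLCF1 (0 against 2173). Where libraries 1 and 2 differed at least 4-fold at a member locus, with 1 CPM (counts scaled with TMM to a library of 1000000) or more in the higher one, libraries 3 to 6 mostly lay between them. This was so for 78.7% of values over 61 loci in NC, 79.6% over 65 loci in CO and 84.0% over 166 loci in CLCF1. The edgeR p-values over 18 libraries treat every library as an independent sample. Independence of libraries 3 to 6 from libraries 1 and 2 was not tested, and without it the p-values are too small, so fold changes from libraries 1 and 2 alone stand beside most of those given. Library totals ran from 15111830 to 20339652 counts. Marker genes of brain regions also differed within groups: 5 choroid plexus genes summed to 55.3 to 5870 CPM in CLCF1, against 0.881 to 171 CPM in the other groups, and 6 monoamine neuron genes to 16.6 to 209 CPM in NC. In bulk tissue, fewer cells of a type and less RNA per cell cannot be told apart.

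MicroRNA genes are often cut out of long transcripts that annotations miss, and 24 member loci lay within 15 kb of an annotated microRNA gene on the same strand. RefSeq (GRCr8) holds mature sequences for 9 of them. The microRNAs below are shown because their neighbouring loci are described later. Capitals mark the seed, bases 2 to 8 from the 5′ end, which pairs with target messenger RNAs. Counts at these loci come from long-RNA libraries and measure no mature microRNA.
rno-miR-132-3p: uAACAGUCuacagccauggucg
rno-miR-212-3p: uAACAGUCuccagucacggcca
rno-miR-138-5p: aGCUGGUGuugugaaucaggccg
rno-miR-29b-3p: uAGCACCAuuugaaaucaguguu
rno-miR-129-5p: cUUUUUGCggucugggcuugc
miR-132-3p and miR-212-3p share the seed AACAGUC. Their genes lie 457 and 164 bp downstream of locus 284, a locus of 812 bases at chr10:62013727-62014538 on the plus strand (coordinates as deposited, with no rat build named). Mir138-1 lies 236 bp downstream of locus 2065 and 3914 bp downstream of locus 2064. Mir29b1 lies 10264 bp downstream of locus 1559 and 11878 bp downstream of locus 1560. Mir129-1 lies 14428 bp upstream of locus 1496.

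The member loci were as long as annotated long intergenic RNAs and shorter than protein-coding genes. Their median transcribed length was 1310 bases (quartiles 773 and 2310). The 182 annotated lincRNA genes with the same mean count of 10 or more had a median of 1250 bases, and 14510 such protein-coding genes had 2380. Introns are part of most loci, since the genomic span (median 4950 bp) equalled the transcribed length at only 154 of 1117 loci (13.8%), against 6.04% of lincRNA and 4.56% of protein-coding genes. The longest were locus 1003 (15617 bases) and locus 1367 (13598 bases). The shortest were locus 699 (206 bases) and locus 790 (230 bases). Per kb of length, the median level was 1.97 CPM at member loci, 1.54 CPM at lincRNA genes and 8.08 CPM at protein-coding genes. All 3 sets share the minimum count, which cuts off their lower ends, so these levels describe the sets and are not tested.

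**Figure D1:**
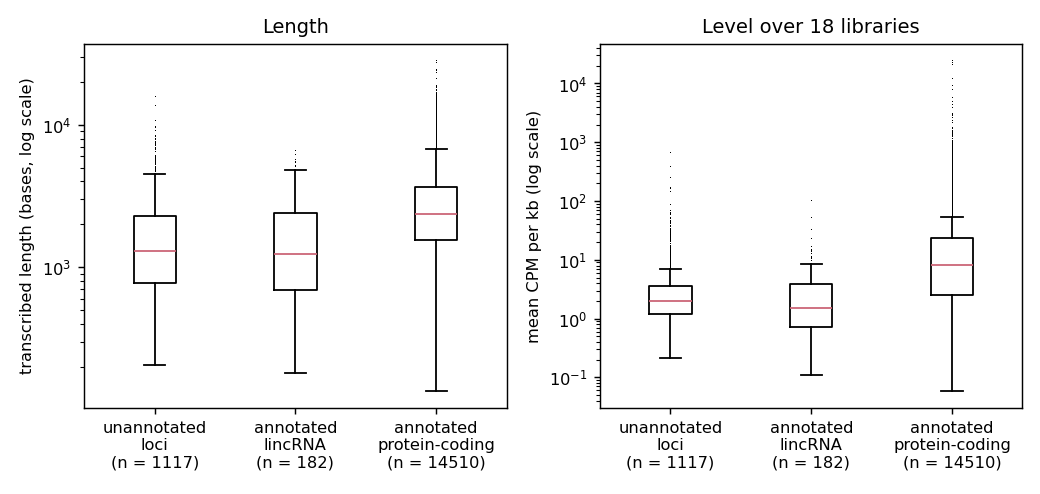
Transcribed length in bases (left) and mean CPM per kb over 18 libraries (right), on log axes, for the 1117 unannotated loci, 182 annotated lincRNA genes and 14510 annotated protein-coding genes with a mean count of 10 or more. Boxes show quartiles and the median, whiskers reach the last value within 1.5 box lengths, and dots are values beyond; the loci have medians of 1310 bases and 1.97 CPM per kb.

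Loci were found on all 20 autosomes and the X chromosome. Chromosome 1 held the most, 129 (11.5%, against 12.5% of expressed protein-coding genes), and 7 loci sat on 7 unplaced sequences. The nearest annotated gene was a median 4660 bp away and was protein-coding for 841 loci and a lincRNA for 110. Overlap with an annotated gene or a distance of 5 kb or less was found for 565 loci (50.6%, exact 95% binomial interval 47.6% to 53.6%). Only 2 of these overlapped a gene, on its strand, and 563 lay within 5 kb without overlap. The interval takes loci as independent, although 87 lay in runs of neighbouring members. Position went with level. Within 5 kb, 164 loci lay downstream of a gene's end on the other strand, and their median level was 8.39 CPM. The 207 loci upstream of a gene's start on the other strand had 2.28 CPM, the 93 downstream on the same strand 2.91 CPM and the 99 upstream on the same strand 1.60 CPM. Among loci within 100 bp of the nearest gene, the 62 beyond its end on the other strand had a median of 19.6 CPM and 2530 bases. The 62 before its start on the other strand, had 2.92 CPM and 1310 bases.

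A few loci held much of the signal. The 10 highest carried 31.8% of all counts in member loci, and the members together took 1.19% to 1.59% of each library. The highest, locus 1802 on chromosome 6, has a deposited similarity hit to calmodulin, the calcium sensor of synaptic signalling. It stood at 1260 to 1450 CPM in NC (median 1290), 1190 to 1510 in CO (median 1390) and 1080 to 1890 in CLCF1 (median 1280). The groups overlapped, and no difference passed the test. Calmodulin genes and pseudogenes are near-identical, so reads can be shared between copies and the value is uncertain. Further high loci were locus 1503 (mean 377 CPM, 4 bp beyond the end of Mtpn on the other strand) and locus 1922 (275 CPM), whose hit is the ribosomal protein gene Rps26. RefSeq places Rps26 between the same flanking genes, Erbb3 and Ikzf4.

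Locus 1375 spans chr3:111396957-111410587 on the plus strand between Chp1 and Oip5. RefSeq has 1 gene there that the table does not list, the long non-coding RNA gene Oip5-as1, in the same orientation. The locus was at 202 to 938 CPM in NC (median 406), 236 to 880 in CO (median 473) and 435 to 606 in CLCF1 (median 484), with no difference past the test.

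Locus 1291 on chromosome 20 had a hit to subunit ND4 of respiratory complex I, which is encoded in the mitochondrial genome. Its levels were spread widely, from 151 to 1440 CPM in NC, 398 to 1620 in CO and 110 to 1300 in CLCF1. Within CLCF1, library 1 stood at 1300 CPM and no other above 259. The mitochondrial gene Mt-nd4 itself was at 585 CPM in CLCF1 library 1 and 1770 in library 2, the reverse order. In NC and CO both were highest in the same library, NC library 3 (2740 CPM for Mt-nd4) and CO library 5 (2500 CPM). Elsewhere in these groups they parted. In NC library 2, Mt-nd4 was at its lowest (540 CPM) and the locus at 1340. In CO library 6, Mt-nd4 was at 1340 CPM and the locus at its lowest, 398. Reads of the 2 sequences may be shared, and no difference of locus 1291 between groups passed the test.

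Deposited descriptions by protein similarity exist for 265 members, and 47 of these name the nearest protein-coding gene, 43 of them on its strand. For 50 loci, RefSeq holds the gene named by the hit between the same flanking genes, for 32 in the same orientation. Among these are brain genes at high level. Locus 1494 (hit Kcnd2, a potassium channel of the somatodendritic A-type current) spans 509722 bp and had a mean of 132 CPM, and locus 2082 (hit Sorl1, a sorting receptor for the amyloid precursor protein) had 129 CPM. Locus 204 (hit Gsg1l, an auxiliary subunit of AMPA receptors) was at 54.2 to 79.0 CPM in CLCF1 (median 71.4) and 74.6 to 149 in CO (median 105), with overlap, a log2 difference of -0.64 ± 0.17 (adjusted p = 0.0141; -0.61 in libraries 1 and 2). Locus 160 (hit Pnma8c, of the paraneoplastic antigen family) also fell in CLCF1 against CO, by 0.64 ± 0.17 on the log2 scale (adjusted p = 0.015; -0.39 in libraries 1 and 2), although CLCF1 library 2 (119 CPM) stood above CO library 6 (110 CPM).

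The next loci were picked after their values were seen, for hits to innate immune or vascular genes, because the study concerns macrophages. Locus 2321, with a hit to Nkrf, a repressor of NF-κB target genes, lies beside Ube2a, where RefSeq places Nkrf too. It was at 28.8 to 39.0 CPM in NC (median 31.6), 35.6 to 55.1 in CO (median 43.0) and 32.3 to 34.2 in CLCF1 (median 33.3). It rose in CO by 0.40 ± 0.11 (adjusted p = 0.0277) and fell in CLCF1 against CO by 0.38 ± 0.11 (adjusted p = 0.0303), with 0.40 and -0.30 in libraries 1 and 2. NC and CO overlapped, and CLCF1 lay below all CO libraries. The first call was lost in 5 of 12 fits that left out 1 library (CO 5 or 6, NC 2, 4 or 6; adjusted p up to 0.0626). The second was lost in 3 (CLCF1 5, CO 2 or 6; up to 0.0572). Locus 1685 (hit Ddx58, the RNA sensor RIG-I) was at a mean 8.43 ± 1.86 CPM in NC (SD, n = 6), 5.68 ± 1.74 in CO and 8.75 ± 2.04 in CLCF1. None of its 3 edgeR comparisons passed (adjusted p = 0.0834, 0.0504 and 0.907). Locus 1672 (hit Ly96, the MD-2 partner of Toll-like receptor 4) fell in CLCF1 against NC by 2.08 ± 0.51 (adjusted p = 0.0167; -2.02 in libraries 1 and 2), from 1.18 to 1.85 CPM in NC to 0.0541 to 0.645 in CLCF1. Locus 377 (hit Pecam1, the endothelial adhesion molecule CD31) and locus 601 (hit Ackr1, a decoy chemokine receptor of venules) had means of 12.4 and 30.3 CPM and passed in no comparison. Locus 1212 abuts the end of Il6st, which encodes gp130, at 2 bp on the other strand. It was at 106 ± 33.9 CPM in NC, 103 ± 52.2 in CO and 104 ± 20.4 in CLCF1.

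In CO against NC and in CLCF1 against CO, loci were called at about the share of all rows, and in CLCF1 against NC at a larger share. The filter on low counts left 1108 of the 1117 loci among 16581 tested rows, and 61 loci reached a mean of 10 counts in 1 group only, so these counts describe the loci that passed. In CO against NC, edgeR called 143 loci (12.9%, against 12.7% of all rows). Of these, 66 were higher (5.96%, against 6.32% of all rows) and 77 lower (6.95%, against 6.4%). In CLCF1 against CO it called 195 (17.6%, against 17% of all rows). There, 100 were higher (9.03%, against 8.63%) and 95 lower (8.57%, against 8.34%). In CLCF1 against NC it called 137 (12.4%, against 9.26% of all rows). Of those, 77 were higher (6.95%, against 4.43%) and 60 lower (5.42%, against 4.84%). The comparisons share their control libraries. The median log2 fold changes of members were 0.02, 0.03 and 0.02, beside 0.01, 0.00 and 0.01 for all rows. Absolute values were larger at members, with medians of 0.40, 0.43 and 0.40 against 0.27, 0.28 and 0.25, and so were their standard errors (median 0.33 against 0.21 in each comparison).

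With libraries 1 and 2 alone, edgeR called 0 members in each comparison at an adjusted p under 0.05. At an unadjusted p under 0.05 it took 27 members in CO against NC (2.45%, against 3.53% of all rows), 34 in CLCF1 against CO (3.08%, against 4.86%) and 28 in CLCF1 against NC (2.54%, against 2.49%). DESeq2 called 0 (against 0.306% of all rows), 3 (0.269%, against 0.527%) and 1 (0.0895%, against 0.244%). The fold changes there kept the direction of the call for all 142, 194 and 136 called loci that this smaller fit tested. These loci were called partly on the same 2 libraries, so the shared direction is not independent.

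**Figure D2:**
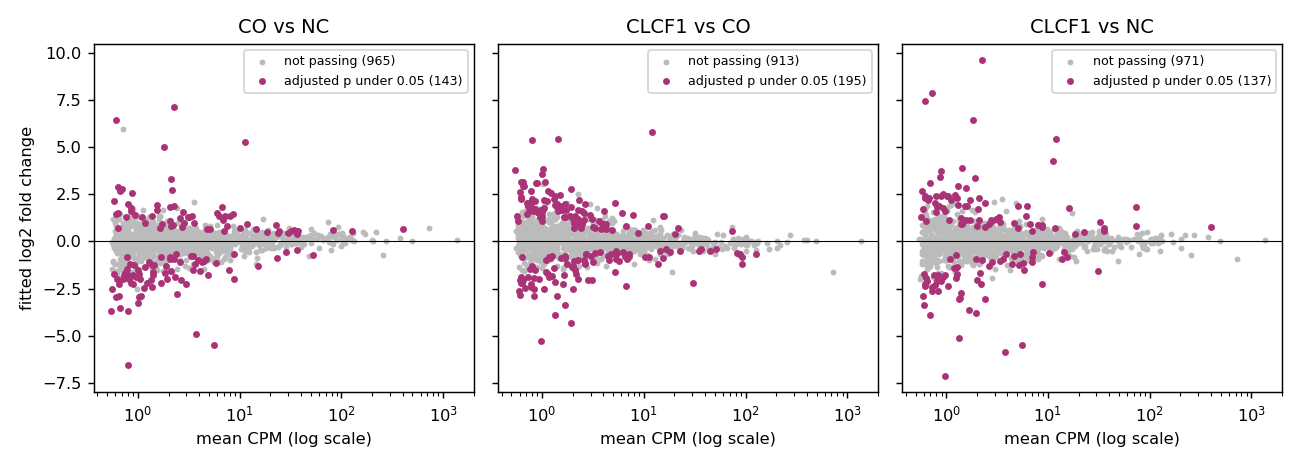
Fitted log2 fold change of the 1108 tested loci (vertical) against mean CPM on a log axis (horizontal) in each comparison. Purple points passed an edgeR adjusted p under 0.05 (143, 195 and 137 loci) and grey points did not; most of the widest differences are at loci of a few CPM or less.

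Carbon monoxide against untreated brain was the first comparison. The largest fall was at locus 246 (chr1:282098617-282102914, minus strand), 1 of 2 members in the gap between Cacul1 and Nanos1. It was at 0.463 to 3.22 CPM in NC (median 1.68) and 0.376 to 1.13 in CLCF1 (median 0.66), and in CO it had a count only in library 1, at 0.0598 CPM. With 180 counts in NC and 1 in CO, the ratio was 159 (exact interval 28.3 to 6330, counting error only), and the edgeR adjusted p was 0.000146. The fitted log2 difference was -6.55 and, in libraries 1 and 2 alone, -4.96. Without CO library 1, CO had no count at this locus (adjusted p at most 0.000888 over the fits that left out 1 library). Its neighbour locus 245 was also lowest in CO, at 0.224 to 1.40 CPM in NC (median 0.648), 0 to 0.179 in CO (median 0.0315) and 0.238 to 1.70 in CLCF1 (median 0.592). At neither locus did CO overlap NC or CLCF1. The fall of locus 245 was -3.70 ± 0.79 (adjusted p = 0.00618; -2.35 in libraries 1 and 2), and -4.56 without CO library 1. The 2 genes flanking them, Cacul1 and Nanos1, had log2 differences of 0.32 and -0.07, neither past the test. Locus 1692, a locus 6780 bp upstream of Fkbp15 with a hit to that gene, fell by 3.71 ± 0.63 (adjusted p = 0.00154; -2.54 in libraries 1 and 2). In CLCF1 against NC it was at -2.10 ± 0.55 (adjusted p = 0.0219; -0.64), and that call was lost without NC library 3 (adjusted p = 0.0506). Locus 1475, between Apcdd1l and Stx16, fell by 3.51 ± 0.72 (adjusted p = 0.00518; -2.75), with -4.30 without CO library 1. Marker genes of several cell types also differed between groups. The 3 ependymal genes found, markers of ciliated cells, summed to 5.36 to 8.69 CPM in NC and 1.02 to 2.45 in CO. In CLCF1 they summed to 3.49 to 8.46 CPM, and 3 of the 3 fell in CO against NC. The 5 fibroblast and meninges genes summed to 297 to 464 CPM in NC, 99.2 to 326 in CO and 216 to 364 in CLCF1. CO library 5 alone, at 326 CPM, lay inside the NC range, and 4 of the 5 genes fell in CO. In CLCF1 against CO, 2 genes of each of these lists were higher. Of 4 monoamine neuron genes tested, 3 fell in CO against NC and 2 were higher in CLCF1 than in CO. Of 5 choroid plexus genes tested, 1 fell and 4 were higher in the same comparisons. The part of all these marker genes in the results for loci 246, 245 and 1475, and for locus 278 described below, was not tested.

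Loci 2225 and 699 were low in both exposed groups. Locus 2225 sits on an unplaced sequence with a hit to Ap2b1, the beta subunit of the clathrin adaptor AP-2. It was at 2.85 to 24.6 CPM in NC (median 9.39), 0 to 1.14 in CO (median 0.095) and 0 to 0.437 in CLCF1 (median 0.0808). The log2 differences were -4.90 ± 0.80 in CO (adjusted p = 0.00118; -3.07 in libraries 1 and 2) and -5.85 ± 0.85 in CLCF1 (adjusted p = 0.0006; -4.18), and NC overlapped neither. Without CO library 1 the first was -5.76. Locus 699, the shortest member, was at 0.555 to 50.6 CPM in NC (median 8.91), 0 to 0.837 in CO and 0 to 0.953 in CLCF1. NC library 1 had 50.6 CPM and library 2 had 0.555, inside the range of the other groups, so the 2 libraries disagree about this locus. Without NC library 1 the log2 difference was -4.67 in each comparison and still passed (-5.50 and -5.48 with it, -5.06 and -4.84 in libraries 1 and 2 alone). NC libraries 3 to 6, at 7.12 to 19.6 CPM, lay between libraries 1 and 2. Their independence was not tested, so the fit without library 1 cannot settle the disagreement. Across NC, the monoamine neuron genes summed to 209 CPM in library 1 and 16.6 in library 2, and the 3 red blood cell genes found to 325 CPM at most and 0.0925 at least. Of 4 monoamine neuron genes tested, 3 were lower in each exposed group. Their part in the result was not tested.

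Loci that rose in CO included some with no count in untreated brain. Locus 1721 (chr5:155466919-155468856, minus strand, between Zbtb40 and Wnt4) had 0 counts in all 6 NC libraries, 0.315 to 1.14 CPM in CO (median 0.458) and 0.778 to 1.57 in CLCF1 (median 1.27). Against a floor of 3 counts over NC it was at least 21.8-fold higher in CO and at least 43.8-fold higher in CLCF1, and no library overlapped NC. Such bounds, here and below, cover counting error in the summed counts of a group only. They leave out the spread between libraries. Locus 1307, 14279 bp upstream of RT1-CE10, a class I histocompatibility gene, was also at 0 in NC and at least 36.5-fold higher in CO, though CO library 2 was at 0 as well. In CLCF1 it was at 1.25 to 17.3 CPM and at least 202-fold higher. As fitted, which for a group at 0 depends on the prior count, the log2 differences were 7.13 (6.28 without CO library 1) and 9.65 (8.89 without CLCF1 library 5), with 7.85 and 9.02 in libraries 1 and 2. RT1-CE10 had 0 CPM in NC, 0 to 9.59 in CO and 0.655 to 3.82 in CLCF1. The histocompatibility region differs between rat strains and holds near-identical genes, so reads there are uncertain.

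Locus 1127 rose from near 0 to a mean of 22.1 CPM in CO. It is a single stretch of 1072 bases at chr2:18596230-18597301 between Vcan and Xrcc4. It was at 0 to 1.13 CPM in NC (median 0.564) and 12.3 to 33.7 in CO (median 20.4), without overlap, a log2 difference of 5.29 ± 0.73 (adjusted p = 0.000535; 4.33 in libraries 1 and 2). In CLCF1 it ranged from 0.714 CPM in library 1 to 19.8 in library 2 (median 13.2), and the difference from NC was 4.29 ± 0.71 (adjusted p = 0.00134; 3.31). Vcan, a proteoglycan of the extracellular matrix and the nearest gene at 30388 bp, had a log2 difference of -0.48 in CO that did not pass. Locus 777, with a hit to a variable segment of the T cell receptor alpha chain, rose by 2.88 ± 0.60 (adjusted p = 0.00541; 1.85), from at most 0.331 CPM in NC to 0.837 to 2.16 in CO. Locus 1699, with a hit to the forkhead factor Foxd3, was called at 5.04 ± 1.55 (adjusted p = 0.0396), with 1.77 in libraries 1 and 2 alone, but 3 CO libraries were at 0. The call was lost in 8 of 12 fits that left out 1 library (each NC library, and CO libraries 3 and 6), with log2 fold changes from 4.09 to 7.74 and adjusted p up to 0.0973.

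**Figure D3:**
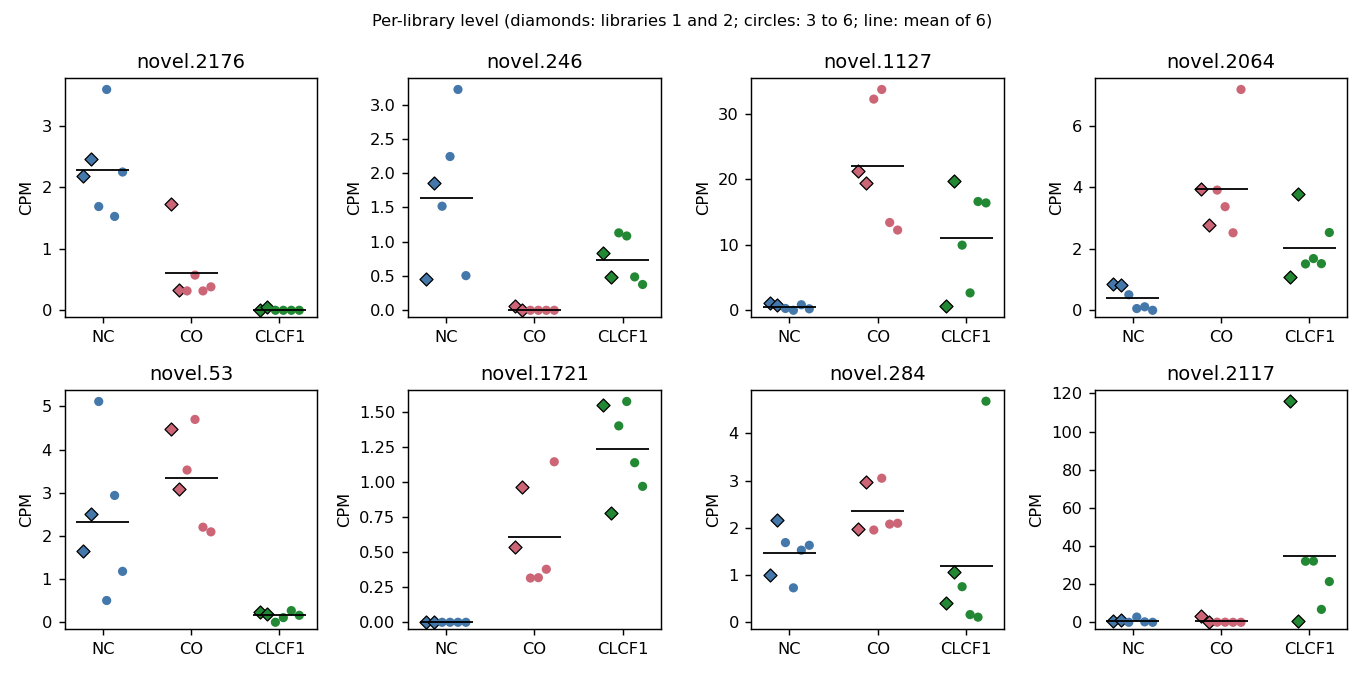
CPM in each library (vertical, linear axes that differ between panels) of 8 loci in NC, CO and CLCF1; panel titles end in the locus number. Diamonds are libraries 1 and 2, circles libraries 3 to 6 and lines the mean of 6; locus 246 is near 0 in CO only, locus 2176 and locus 53 in CLCF1, and locus 1721 in NC.

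In the CLCF1 group, the largest fall against both others was at locus 2176 (chr9:100368491-100374762, plus strand). Its hit is Crocc2, a ciliary rootlet protein, and RefSeq places Crocc2 between the same flanks, Agxt and Sned1. It was at 1.53 to 3.59 CPM in NC (median 2.22) and 0.315 to 1.73 in CO (median 0.351), and in CLCF1 it had 1 count in all, in library 2. The counts gave a ratio of 68.9 between CO and CLCF1 (exact interval 11.9 to 2770; edgeR adjusted p = 0.000399) and 255 between NC and CLCF1 (45.4 to 10100; adjusted p = 2.25e-05). The fitted log2 difference from CO was -5.26, with -4.97 in libraries 1 and 2 alone, -6.42 without CLCF1 library 2 and -4.60 without CO library 1. That from NC was -7.16, with -6.15 in libraries 1 and 2 alone and -8.31 without CLCF1 library 2. The locus also fell in CO against NC by 1.89 ± 0.44 (adjusted p = 0.00928; -1.18 in libraries 1 and 2), with -2.56 without CO library 1. The 3 ependymal genes, with the sums given above, were between 3.49 and 8.46 CPM in CLCF1, and their part in the result was not tested.

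At loci 53, 1032 and 239 CLCF1 also lay below CO without overlap. Locus 53, 5676 bp upstream of Zfp420 in a cluster of zinc finger genes, was at 2.10 to 4.70 CPM in CO (median 3.31), 0.505 to 5.12 in NC (median 2.08) and 0 to 0.271 in CLCF1 (median 0.178). It fell by 4.31 ± 0.55 against CO (adjusted p = 0.000228; -4.10 in libraries 1 and 2) and by 3.78 ± 0.55 against NC (adjusted p = 0.000615; -3.25). Locus 1032, between Csnk1g3 and Zfp608, fell by 3.40 ± 0.55 (adjusted p = 0.000829; -3.00). Locus 239, 6557 bp from Tmem180, fell by 2.92 ± 0.59 (adjusted p = 0.00337; -1.90). Locus 200, with a LINE-1 hit 86649 bp upstream of the imprinted gene Snurf, overlapped CO and fell by 2.87 ± 0.71 (adjusted p = 0.01; -1.55), but the value was -1.80 without CO library 5, which alone was at 4.66 CPM. Locus 1395, 4987 bp from a U4 small nuclear RNA gene, fell against NC by 3.88 ± 0.77 (adjusted p = 0.00489; -3.91), with -5.17 without CLCF1 library 6.

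Locus 1198 and its neighbour were both lower in CLCF1 than in CO and in NC. The neighbour at 4840 bp is Lhx8, a homeobox factor of forebrain cholinergic neurons. Locus 1198 was at 0 to 6.84 CPM in NC (median 2.30), 0.0644 to 3.11 in CO (median 0.506) and 0 to 0.357 in CLCF1, where 4 libraries were at 0. Lhx8 was at 0 to 6.75 CPM in NC, 1.02 to 20.1 in CO and 0 to 0.357 in CLCF1. In CO against NC they differed in opposite directions, by -1.22 for the locus and 1.07 for Lhx8, and neither passed. CO library 5 had the most Lhx8 (20.1 CPM) but 0.189 CPM of the locus. Against CO, the locus differed by -3.91 ± 1.17 (adjusted p = 0.0272; -3.17 in libraries 1 and 2) and Lhx8 by -5.96 ± 1.10 (adjusted p = 0.00197; -4.49). Hypothalamus marker genes also differed between groups, at sums of 4.61 to 13.4 CPM in NC, 14.0 to 309 in CO and 16.3 to 79.0 in CLCF1, and their part in the result was not tested. The call of the locus was lost in 6 of 12 fits that left out 1 library (CO 1 or 6, CLCF1 2, 4, 5 or 6), with adjusted p up to 0.0632, and it was -5.42 without CLCF1 library 1. Against NC it was -5.12 ± 1.16 (adjusted p = 0.0103; -3.63), and -6.64 without CLCF1 library 1.

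The largest rise in CLCF1 against CO was at a locus whose level differed widely within CLCF1. Locus 2117 lies 85 bp upstream of a U2 small nuclear RNA gene at chr8:118440601-118445533. It was at 0 to 2.75 CPM in NC, 0 to 3.17 in CO and 0.778 to 116 in CLCF1 (median 26.7), with differences of 5.83 ± 1.21 from CO (adjusted p = 0.00371; 5.09 in libraries 1 and 2) and 5.43 ± 1.17 from NC (adjusted p = 0.00806; 5.99). The first was 4.92 without CLCF1 library 1 and 8.70 without CO library 1, and the second 4.51 without CLCF1 library 1 and 6.36 without NC library 4. CLCF1 libraries 1 to 6 had 116, 0.778, 32.0, 32.1, 6.76 and 21.3 CPM at this locus. The choroid plexus genes summed to 5870, 55.3, 3620, 3870, 788 and 2570 CPM in the same libraries. Both are lowest in library 2 and highest in library 1. Of the 5 choroid plexus genes tested, 4 were higher in CLCF1 than in CO, and their part in the result was not tested.

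**Figure D4:**
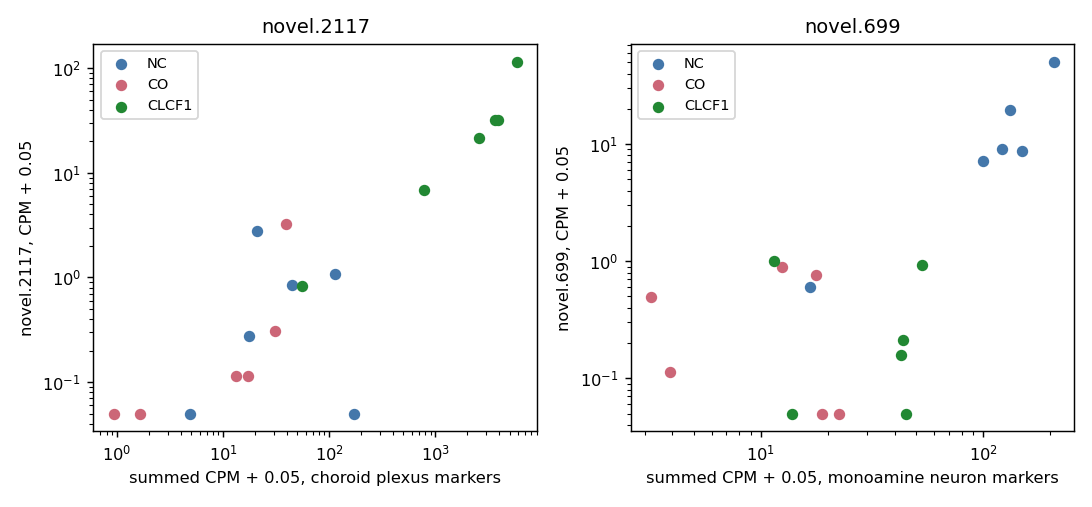
Level of locus 2117 against the summed choroid plexus genes (left) and of locus 699 against the summed monoamine neuron genes (right), as CPM + 0.05 on log axes, 1 point per library coloured by group. CLCF1 libraries with high choroid plexus sums (to 5870 CPM) have the most locus 2117 (to 116 CPM). The NC library with 209 CPM of monoamine neuron genes has the most locus 699 (50.6 CPM). Elsewhere the right panel is less regular. CLCF1 libraries 4 to 6 have 42.8 to 45.0 CPM of these genes and at most 0.162 CPM of locus 699. NC library 2 has 16.6 and 0.555 CPM, and CLCF1 library 2 has 52.8 and 0.875 CPM.

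Several of the loci that were higher in CLCF1 than in CO were those low in CO. Locus 246 and locus 245 were described above, with log2 differences of 5.39 ± 0.80 (adjusted p = 0.000514) and 3.82 ± 0.79 (adjusted p = 0.00355), or 6.69 and 4.69 without CO library 1. In libraries 1 and 2 these were 4.13 and 2.89. Locus 278, 129 bp upstream of Hs3st3a1, a heparan sulfate sulfotransferase gene, was at 0.226 to 1.46 CPM in NC (median 1.13), 0 to 0.315 in CO (median 0.0962) and 0.655 to 2.90 in CLCF1 (median 2.22). It fell in CO by 2.95 ± 0.63 (adjusted p = 0.00607; -2.58 in libraries 1 and 2) and was higher in CLCF1 than in CO by 3.87 ± 0.62 (adjusted p = 0.000792; 3.00). The same CO libraries enter both values. Locus 181, in the gap between Arrdc4 and Nr2f2, was at most 0.662 CPM in NC and 0.418 in CO and 0.119 to 8.65 in CLCF1 (median 3.44). Its difference from CO was 5.45 ± 1.06 (adjusted p = 0.00266; 4.10), or 7.63 without CO library 1, and the nearest lincRNA gene, at 4860 bp on the same strand, rose too (3.26 ± 0.84, adjusted p = 0.0129; 2.10). Locus 1588 (1366 bp from Tuba8) had 0 counts in NC and in CLCF1 library 1. By a bound from counting error only, it was at least 62.9-fold higher in CLCF1 than in NC. This locus was not tested in libraries 1 and 2 alone.

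The loci beside microRNA genes differed from one another. Locus 2064, upstream of Mir138-1, was at 0 to 0.86 CPM in NC (median 0.309), 2.52 to 7.17 in CO (median 3.64) and 1.07 to 3.79 in CLCF1 (median 1.6). NC overlapped neither exposed group. It rose in CO by 3.30 ± 0.59 (adjusted p = 0.00202; 1.97 in libraries 1 and 2) and in CLCF1 against NC by 2.33 ± 0.58 (adjusted p = 0.017; 1.48). Locus 2065, the locus between it and the microRNA, did not pass in any comparison (means of 0.696, 0.620 and 0.457 CPM), so the 2 loci differed in their calls on either side of a short gap, and their difference was not tested. The annotated Mir138-1 row fell in CLCF1 against CO by 2.73 ± 0.84 (adjusted p = 0.0319; -2.46). Its level was low, at 0.254 to 1.14 CPM in CO and 0 to 0.325 in CLCF1, with overlap. Locus 1496, near Mir129-1, rose in CO by 2.16 ± 0.67 (adjusted p = 0.0399; 1.21) and in CLCF1 against NC by 2.68 ± 0.65 (adjusted p = 0.0161; 2.13), or 2.77 and 3.28 without NC library 4. The call in CO was lost in 8 of 12 fits that left out 1 library (CO 2 to 5, NC 2, 3, 5 or 6; adjusted p up to 0.111). Locus 1560, upstream of Mir29b1, fell in CLCF1 against CO by 2.20 ± 0.62 (adjusted p = 0.0205; -1.31), with -3.31 without CLCF1 library 2, and its neighbour locus 1559 stood at 2.22 ± 0.666 CPM in CO and 2.23 ± 0.628 in CLCF1.

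Locus 284, upstream of the pair Mir212 and Mir132, was at 0.729 to 2.17 CPM in NC (median 1.58), 1.95 to 3.05 in CO (median 2.09) and 0.108 to 4.68 in CLCF1 (median 0.585). In CLCF1, 5 libraries were at 1.07 CPM or less and library 6 at 4.68. The log2 difference from CO was -0.97 ± 0.60 (adjusted p = 0.283; -1.73 in libraries 1 and 2). The rows of the microRNA genes just downstream did pass: Mir132 was at 1.32 to 5.33 CPM in CO and 0 to 0.357 in CLCF1 (-4.29 ± 0.68, adjusted p = 0.000748; -2.83), and Mir212 at 0.451 to 1.65 in CO and 0 to 0.292 in CLCF1 (-3.67 ± 0.70, adjusted p = 0.00233; -2.41). Both are encoded in 1 transcript known to respond to neuronal activity.

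Loci with repeat or zinc finger hits were a small share. All rows were called higher and lower at 6.32% and 6.4% in CO against NC, 8.63% and 8.34% in CLCF1 against CO, and 4.43% and 4.84% in CLCF1 against NC, and nothing is read from the small counts per class. LINE-1 protein was the hit of 19 loci, all tested. In CO against NC 3 were higher and 0 lower, in CLCF1 against CO 1 and 2, and in CLCF1 against NC 2 and 1. Locus 1120 (37 bp from the start of Nr2f1 on the other strand) rose in CO by 0.62 ± 0.12 (adjusted p = 0.00295; 0.66 in libraries 1 and 2), from 23.4 to 33.8 CPM to 36.5 to 56.7, without overlap. Retroviral proteins were the hit of 17 loci, of which 3 were higher and 2 lower in CO against NC, 1 and 1 in CLCF1 against CO, and 3 and 1 in CLCF1 against NC. Locus 1585, with an envelope protein hit, was at 7.11 to 23.0 CPM in CO (median 11.8) and at most 6.42 in NC and 5.85 in CLCF1. It rose in CO by 1.82 ± 0.43 (adjusted p = 0.0112; 1.56) and fell in CLCF1 against CO by 2.39 ± 0.44 (adjusted p = 0.00206; -2.42). Many KRAB zinc finger proteins are repressors that silence retrotransposons, which need not hold for every zinc finger hit counted here. Of 23 loci with zinc finger or KRAB hits, 1 was higher and 1 lower in CO against NC. In CLCF1 against CO 5 were higher and 1 lower, and in CLCF1 against NC 0 and 2. Locus 323 (hit Znf431) was the member lower in CLCF1, by 2.19 ± 0.31 against CO (adjusted p = 0.000432; -1.69). Copies of such families are alike, so their counts are uncertain. Loci 1120, 1585 and 323 were picked after their values were seen.

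Locus and nearest gene were also compared. For 812 loci the nearest gene was tested too. Over these pairs, which share libraries, Pearson's r between the log2 fold changes was 0.13 in CO against NC, 0.17 in CLCF1 against CO and 0.26 in CLCF1 against NC, given as a description. Of 102 loci called in CO against NC, the nearest gene was called for 12, and 8 of the 12 had the same direction. In CLCF1 against CO it was 28 of 136, with 18 in the same direction, and in CLCF1 against NC 9 of 100, with 6. All rows were called at 12.7%, 17% and 9.26%, and nothing about neighbours is read from these counts. Locus 993 and Stard4, a sterol carrier gene whose end it abuts at 10 bp, both rose in CO, by 1.34 ± 0.23 and 0.72 (adjusted p = 0.00143 and 0.0225; 1.09 for the locus in libraries 1 and 2). Locus 582 and Syt2, the synaptotagmin of fast-releasing synapses, both fell in CLCF1 against CO, by 2.23 ± 0.46 and 1.89 (-1.46 for the locus in libraries 1 and 2). Locus 552 and Uap1, which start 199 bp apart on opposite strands, went opposite ways: in CO the locus fell by 1.07 ± 0.29 and Uap1 rose by 1.14 (adjusted p = 0.0233 and 0.00916). The call of locus 552 was lost without NC library 4 (adjusted p = 0.0509). In CLCF1 against CO they moved by 1.99 and -0.82. In libraries 1 and 2 the log2 differences of the locus were -0.50 and 1.40.

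**Figure D5:**
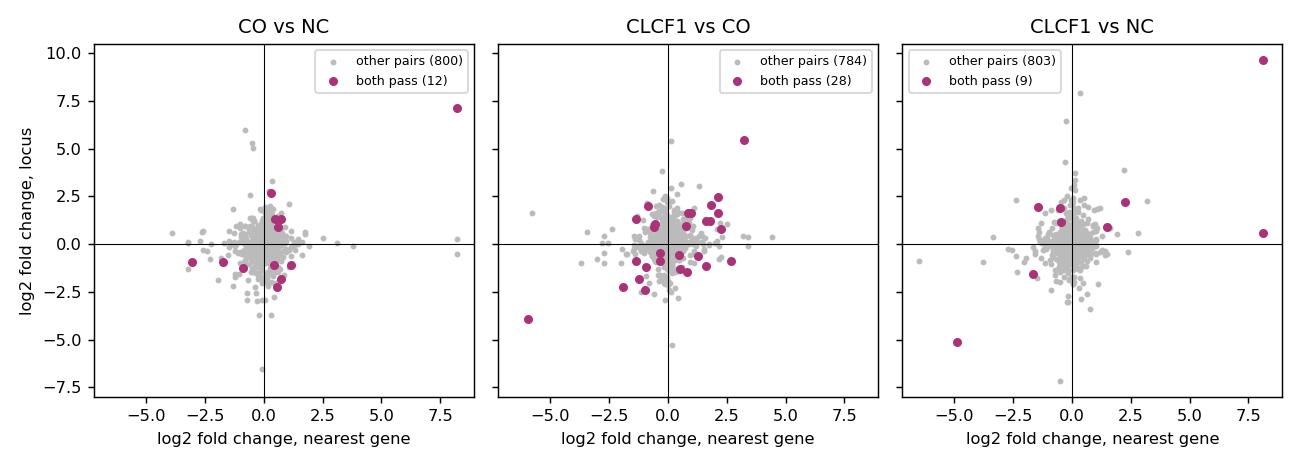
Log2 fold change of a locus (vertical) against that of its nearest annotated gene (horizontal) for 812 pairs in which both were tested. Purple marks pairs in which both passed an edgeR adjusted p under 0.05 (12, 28 and 9); most points lie in a cloud around 0 and Pearson's r is 0.13, 0.17 and 0.26.

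The share of counts in member loci did not differ between groups past the test. It was 1.39% ± 0.122 in NC, 1.48% ± 0.0816 in CO and 1.39% ± 0.0999 in CLCF1 (mean ± SD, n = 6). Two-sided exact permutation tests over libraries gave p = 0.123 for CO against NC, 0.121 for CLCF1 against CO and 0.955 for CLCF1 against NC (adjusted over the 3 comparisons, 0.185, 0.185 and 0.955). The permutation tests also take every library as an independent sample, which was not tested. Without locus 1291 the shares were 1.32%, 1.37% and 1.35%.

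Neighbouring members formed 3 runs of 3 loci with gaps of at most 10 kb. One run lies between Xpo1 and the start of Usp34 on chromosome 14, and its second and last loci (locus 670 and locus 671) have hits to Usp34 itself, a ubiquitin protease. None of the 3 passed in any comparison, while Usp34 fell in CO by 0.59 ± 0.17 (adjusted p = 0.0266; -0.26 in libraries 1 and 2). Another starts at the first base of chromosome 17 (locus 938, locus 941 and locus 943), with LINE-1 and retroviral hits, and its loci passed in no comparison. In the third, locus 660 on chromosome 14 was at 0.396 to 0.662 CPM in NC, 0.773 to 1.07 in CO and 0.389 to 0.596 in CLCF1. CO overlapped neither group (0.74 ± 0.24 against NC, adjusted p = 0.0471; -0.85 ± 0.24 for CLCF1 against CO, adjusted p = 0.0205). In libraries 1 and 2 these were 0.56 and -1.05. The first call was lost in 11 of 12 fits that left out 1 library, all but NC library 1, with adjusted p up to 0.105.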

How the data were processed

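Brain RNA of 18 rat libraries was sequenced, and the authors deposited raw read counts per gene with gene positions and similarity descriptions. How reads were aligned, assembled and counted is not stated in the labels or headers. The builds in the submitters' processing notes are all of mouse (GRCm38, mm10), so coordinates are printed as deposited, with no build. Distances were measured between deposited starts and ends; RefSeq (GRCr8) served for gene order, names and microRNA sequences, and 17170 of 32545 annotated genes matched. Member loci and lists were chosen with earlier results of these data known. All rows passing edgeR's expression filter were fitted together over the 18 libraries (edgeR 4.0.16, TMM scaling, quasi-likelihood test, Benjamini-Hochberg over 16581 rows, threshold 0.05). Fold changes are log2 with their SE; CPM are TMM-scaled. The fit was tested on simulated data. Named loci are, per comparison, up to 6 rises and 6 falls that were largest among calls with the same sign in every fit without 1 library. The 6 highest by CPM and by CPM per kb, the 6 highest with a description, the 2 longest and shortest, runs of 3 or more, and those next to the threshold were added; others are said to be picked afterwards. microRNA neighbours within 15 kb, abutting loci, locus 204 and loci called together with their nearest gene were also chosen after the values were seen. Alternatives used DESeq2 1.42.0 and limma 3.58.1. Some loci are not reported here.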

Additional observations from a re-analysis of the deposited data

Results flagged for a closer look

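A gap between the highest or lowest library and the nearest other one that was wide for the group's range (Dixon's ratio over 6 libraries) was found in 28 cases, of which 27 are among 240 combinations of a named locus and a group. For normally distributed values, chance gives about 1 in 20 groups. The CPM here are often at or near 0, and 1 count beside libraries at 0, as at locus 246 in CO, always gives the widest ratio. In each group, libraries 3 to 6 had counts only in rows where library 1 or 2 had one. The chance level also needs all 6 to be independent, which was not tested.

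In NC, the highest library stood apart at locus 1699 (0.265 CPM, the others at 0), locus 2117 (2.75), locus 655 (381), locus 671 (5.05), locus 938 (1.06) and locus 377 (22.1). At locus 1922, with its Rps26 hit, NC library 4 was the lowest, at 176 CPM. In CO, the highest library stood apart at locus 246 (0.0598 CPM, the others at 0), locus 245 (0.179), locus 2064 (7.17), locus 777 (2.16), locus 2176 (1.73), locus 200 (4.66), locus 2117 (3.17), locus 181 (0.418), locus 1588 (2.41), locus 655 (641), locus 1496 (1.64) and locus 601 (52.7). Of these, the values of locus 246, locus 245, locus 2176, locus 2117 and locus 181 come from CO library 1.

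In CLCF1, the highest library stood apart at locus 1307 (17.3 CPM), locus 1699 (12.2), locus 2176 (0.0486, the others at 0), locus 1198 (0.357), locus 2117 (116), locus 1291 (1300), locus 284 (4.68) and locus 1560 (0.632). The share of counts in member loci was also apart in 1 CLCF1 library, at 1.59% against at most 1.4% in the others. That was library 1, in which locus 1291, the locus with the mitochondrial ND4 hit, was at 1300 CPM.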

How the results depend on the processing

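Called members numbered 143 for CO over NC, 195 for CLCF1 over CO and 137 for CLCF1 over NC, and later values keep that order. With a replicate block they numbered 129, 193 and 135. Deviations of same-numbered libraries from their group means correlated at -0.028 to 0.149, highest for library 2 of CO and CLCF1. Low correlations cannot exclude a pairing by number, and the labels state none. Leaving out 1 library gave 106 to 140, 163 to 208 and 107 to 158. Only libraries 3 to 6 gave 67, 111 and 70. Libraries 1 and 2 alone gave 0, 0 and 0 by edgeR and 0, 3 and 1 by DESeq2, an alternative added after the data were seen. A mean count of 50 or more, which leaves 495 loci, gave 54, 63 and 45. The stricter filter gave 93 for the first and 83 for the last comparison, and DESeq2 on all libraries 225 and 218. The share of counts differed by 0.0984, -0.094 and 0.0044 percentage points, in the same order; without 1 library the ranges were 0.0594 to 0.13, -0.133 to -0.079 and -0.0346 to 0.036. Between CLCF1 and CO it was 0.0185 in libraries 1 and 2 alone. Loci near an annotated gene were 50.6% at 5 kb, 32.9% at 1 kb, 61.3% at 10 kb, 21.4% on the same strand only and 56.6% at a mean count of 50 or more. The 36 named fold changes kept their direction in each alternative that tested them. Naming had required this of every fit without 1 library. The other alternatives reuse counts on which the calls were made, so the kept direction is not independent. Of the 36 calls, 2 were lost with the replicate block, 1 with DESeq2 and 9 with limma-voom. In libraries 3 to 6 alone 5 were lost, and in libraries 1 and 2 alone 35. The cause of these differences was not tested. Depth limits the low loci: at 10 counts, sampling error alone is wide, and a locus at 0 may lie below detection.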

Other observations

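Locus 655, a stretch of 4705 bases on chromosome 14 with no description, was among the 6 highest loci. It was at 248 to 381 CPM in NC (median 264), 365 to 641 in CO (median 412) and 363 to 640 in CLCF1 (median 468), with overlap of NC and both exposed groups. It rose in CO against NC by 0.67 ± 0.16 on the log2 scale (edgeR adjusted p = 0.0112) and in CLCF1 against NC by 0.75 ± 0.16 (adjusted p = 0.00751), with 0.26 and 0.52 in libraries 1 and 2 alone. Locus 1493, with a hit to the imprinted, retrotransposon-derived gene Peg10, was picked after its values were seen. It fell in CO against NC by 1.81 ± 0.46 (adjusted p = 0.0165; -1.59), from 0.956 to 1.8 CPM to 0.19 to 0.657, without overlap. Locus 544, with a Gag-Pol hit, was at 0.555 to 1.98 CPM in NC, 0 to 0.299 in CO and 0 to 4.92 in CLCF1. Its difference between CLCF1 and CO was 3.59 ± 0.88 (adjusted p = 0.00988; 2.72), or 2.81 without CLCF1 library 5.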
